A study of Mus musculus with 6 samples.

Results

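Dividing cells switch on a shared set of genes, and 47 of these were followed here in liver natural killer (NK) cells sorted by CD36, a surface receptor for fatty acids and oxidized lipids. The members were chosen by gene symbol from a given list, and all 47 were found among the 57180 genes of the deposited table. They were placed in 3 classes by role, with 25 mitosis genes, 18 genes of G1/S entry and DNA replication, and 4 transcription factors. None of the 47 was called different between CD36+ NK and CD36- NK, where 5.96% of all tested genes were. The 95% interval of the difference lay within 2-fold either way for 44 of them (93.6%, against 67.9% of all tested genes).

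The libraries came from male C57BL/6J mice aged 6 to 8 weeks. Per the study's methods, the mice received carbon tetrachloride (CCl4) in olive oil, a toxin that causes liver fibrosis, by injection into the abdomen 2 times per week for 4 weeks. Both groups shared this treatment, and neither carried an engineered allele. NK cells were gated as CD3- NK1.1+ and sorted by surface CD36 into CD36+ NK (3 libraries) and CD36- NK (3 libraries). The number of mice behind each library was not given in the sources used here, so p-values measure only the spread between these libraries.

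The cell cycle runs through G1, S phase, G2 and mitosis. E2F1 and its relatives switch on genes that build the replication machinery as a cell passes from G1 into S phase, among them the MCM helicase, the sliding clamp PCNA and the enzymes that make deoxynucleotides. Later, MYBL2 and FOXM1 act with the MuvB core complex on mitosis genes, which encode cyclins, kinases, kinetochore proteins and spindle motors. Resting NK cells of adult tissue are mostly outside the cycle, and they divide when stimulated by cytokines such as IL-15.

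Each library held between 10292480 and 13787189 counts. The submitters' library names of CD36+ NK carry a minus sign (cd36--nk) against their titles, and no library name carries a plus. Groups followed the titles. Cd36 itself was 9.67-fold higher in CD36+ NK (adjusted p = 0.00615 by edgeR's quasi-likelihood test) and did not overlap between the groups. The defining NK markers went the other way. All 10 of the NK list were lower in CD36+ NK, with summed levels of 849.7 to 1040.6 CPM (counts scaled to library size with edgeR's TMM factors) against 4543.3 to 5736.5 CPM in CD36- NK. Markers of other cells were present in both groups. The macrophage and Kupffer cell list summed to 6736.2 to 9368.5 CPM in CD36+ NK and 2472.4 to 5812.2 CPM in CD36- NK (10 of 12 genes tested, 4 called higher), and the B cell list summed to 4711.9 to 5218.6 CPM against 3045.3 to 3517.7 CPM (8 of 8 tested, 1 called higher). The T cell list reached 335.6 CPM in CD36+ NK replicate 1 and lay between 31.8 and 56.5 CPM in the other 5 libraries (8 of 8 tested, 2 called higher). The erythroid list differed between the groups, with 376.7 to 846.3 CPM in CD36+ NK and 84.2 to 194.9 CPM in CD36- NK, no overlap and 6 of 12 genes called higher. The replicate 1 libraries had the highest summed neutrophil and erythroid markers of their groups, given below with the members' order of libraries. Stellate cell markers summed to at most 6.76 CPM in any library, with 2 of 7 genes at 0 in every library, and none of the hepatocyte list had enough counts to be tested. Plasma cell markers summed to 977.2 to 1597.9 CPM in CD36+ NK and 789.8 to 1206.9 CPM in CD36- NK (7 tested, 0 called), and sinusoidal endothelial markers to 224.0 to 310.7 CPM and 154.9 to 170.7 CPM (4 of 7 tested, 1 called higher). The members' RNA was therefore measured in fractions that differed in these markers, whose part in any member's value was not tested. In such bulk libraries, fewer dividing cells and less RNA per dividing cell cannot be told apart.

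The promoters are shown first because the 2 large classes carry different short motifs, which are used nowhere else in the comparison. RefSeq windows on the GRCm38.p6 build, from 250 bases before to 50 bases after each start, were matched by symbol for 38 of the 47 members and gave 41 windows. Both strands were searched for 3 motifs, namely the cell cycle homology region (CHR, spelled TTTGAA or TTCGAA), the E2F site (TTTGGCGC, TTTCCCGC or TTTCGCGC) and the CCAAT box (CCAAT). The stretches below are the 160 bases directly before the start of 2 mitosis and 2 replication members, picked because each holds the motif common in its class. Not every member holds it in this stretch, which had 0 CHR matches for the mitosis genes Kif23 and Plk1 and 0 E2F matches for the replication gene Pcna. Kif23 and Plk1 did have a CHR match in the full window, though not in the 250 bases before the start. Pcna had no E2F match in its full window either. Capitals mark matches on either strand, so ATTGG is a CCAAT box and TTCAAA a CHR read from the other strand.

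Mki67 (chr7:135716380-135716539, minus strand): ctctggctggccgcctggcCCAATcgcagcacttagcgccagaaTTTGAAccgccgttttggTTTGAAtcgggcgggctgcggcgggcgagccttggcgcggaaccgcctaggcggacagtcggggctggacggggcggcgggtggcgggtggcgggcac
Ube2c (chr2:164769769-164769928, plus strand): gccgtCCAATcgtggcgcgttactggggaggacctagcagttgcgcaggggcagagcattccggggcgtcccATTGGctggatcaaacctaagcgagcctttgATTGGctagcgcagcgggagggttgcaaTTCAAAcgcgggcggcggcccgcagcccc
Mcm6 (chr1:128359706-128359865, minus strand): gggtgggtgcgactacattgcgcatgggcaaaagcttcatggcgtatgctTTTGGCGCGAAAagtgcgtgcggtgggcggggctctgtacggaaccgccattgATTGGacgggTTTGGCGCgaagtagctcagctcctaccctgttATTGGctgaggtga
Mcm5 (chr8:75109349-75109508, plus strand): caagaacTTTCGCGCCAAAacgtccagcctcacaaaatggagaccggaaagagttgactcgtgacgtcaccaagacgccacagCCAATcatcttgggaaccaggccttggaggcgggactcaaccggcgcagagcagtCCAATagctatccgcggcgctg

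The Mki67 stretch held 2 CHR matches and the Ube2c stretch 1, while the Mcm6 stretch held 3 E2F matches and the Mcm5 stretch 2. In Mcm6 and Mcm5 a pair of these matches overlapped, which gives the longer runs of capitals. A CHR match was found in 17 of 21 mitosis windows (81.0%), in 3 of 17 replication windows (17.6%) and in 19.2% of all 32851 promoter windows. In the bases before the start alone the share was 47.6% for mitosis windows, 17.6% for replication windows and 17.1% for all windows. The E2F match showed the reverse order, with 7 of 17 replication windows (41.2%), 1 of 21 mitosis windows (4.76%, Cdk1) and 1.84% of all windows. The CCAAT box was found in 85.7% of mitosis windows, 70.6% of replication windows and 37.4% of all windows. A match describes the letters of these windows and shows no binding.

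All 47 members had enough counts to be tested. Each had between 463 and 13327 counts over the 6 libraries, and the lowest count of a member in a single library was 50. Per transcript length, in the length-scaled and depth-scaled fragment counts (FPKM) deposited by the authors, the mean level over the 6 libraries was highest for Pcna (53.3 FPKM), the clamp that holds DNA polymerase on its template. Subunits of the MCM2-7 helicase, which unwinds DNA at replication forks, followed, with mean levels of 22.2 FPKM for Mcm4, 20.9 FPKM for Mcm6 and 18.1 FPKM for Mcm5. Among the mitosis genes, Stmn1 (13.2 FPKM), a regulator of microtubules, and Mki67 (13.0 FPKM), which encodes the Ki-67 protein used as a marker of dividing cells, had the highest mean levels. Mean levels were above 10 FPKM for 11 members and below 1 FPKM for 4, with Cenpf lowest at 0.668 FPKM.

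**Figure D1:**
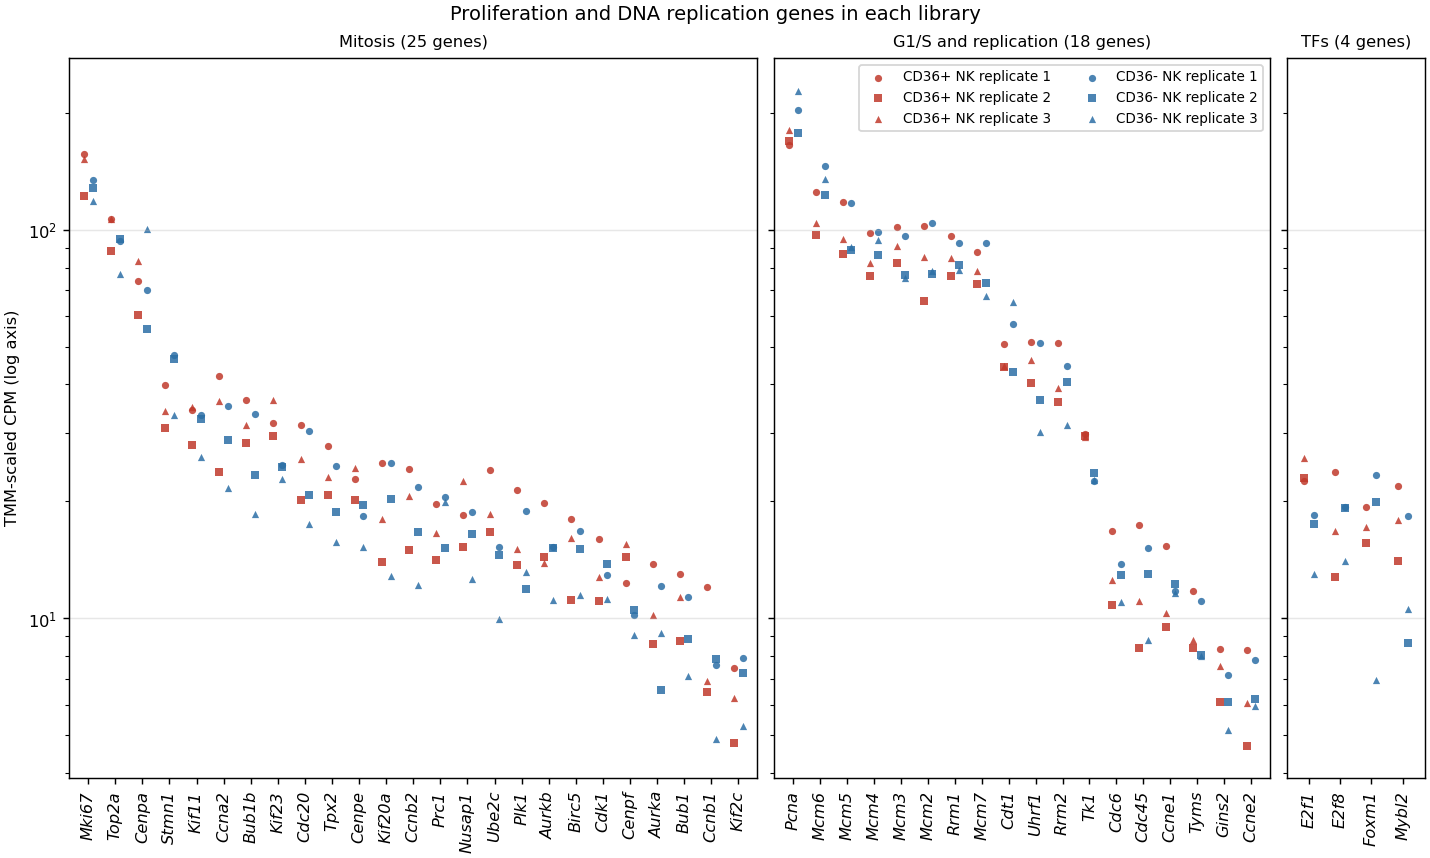
Level of each of the 47 members in each of the 6 libraries, in CPM scaled by edgeR's TMM factors on a log axis, with 1 point per library and genes ordered by mean level within the 3 classes (TFs, transcription factors). For most genes the red CD36+ NK points and the blue CD36- NK points interleave, and the round points of the replicate 1 libraries are often uppermost in their group.

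The comparison asked whether genes of the division program differ in level between CD36+ and CD36- NK cells of fibrotic livers. No source used here says whether both fractions of a replicate came from the same mice. By edgeR's quasi-likelihood test on the counts, where a call meant an adjusted p (Benjamini-Hochberg) below 0.05 together with a fold above 2, 0 of 47 members were called, where 880 of 14761 tested genes (5.96%) were, with 2.98% called higher and 2.98% called lower. At the adjusted p alone the count was also 0 of 47, against 1552 genes (10.5%), and the lowest adjusted p among the members was 0.06 (Tk1). At an unadjusted p below 0.05, 7 members passed (14.9%, against 26.3% of all tested genes), of which 6 were higher in CD36+ NK (12.8%, against 14.2%) and 1 was lower (2.13%, against 12.1%). With limma-voom 0 members passed the adjusted p alone, against 11.5% of all tested genes, and 7 the unadjusted one, against 26.6%. With DESeq2, 2 members passed the adjusted p alone (Kif23 and E2f1), against 15.7% of all tested genes, 0 were called with the fold limit, against 7.74%, and 6 passed the unadjusted threshold, against 24.9%.

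For most members the size of a difference could be bounded. The whole 95% interval of the log2 fold change lay within 2-fold either way for 44 of 47 members (93.6%), against 67.9% of all tested genes. The exceptions were Ube2c, Ccnb1 and Mybl2, whose upper bounds were 1.08, 1.03 and 1.23 on the log2 scale. Within the narrower limit of 1.5-fold, the interval lay inside for 16 members (34.0%), against 42.5% of all tested genes, so a difference of that size was not bounded for the other members.

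The log2 fold changes of CD36+ NK over CD36- NK ran from -0.31 (Mcm6) to 0.57 (Ube2c), with a median of 0.11 against 0.01 over all tested genes. The log2 fold change was above 0 for 34 members (72.3%, against 51.9% of all tested genes), and for 42 it lay inside 0.4 either way. The members' median was -0.05 without CD36+ NK replicate 1 alone and 0.09 without both replicate 1 libraries. It was 0.01 without CD36- NK replicate 3, 0.22 without CD36+ NK replicate 2 and 0.22 without CD36- NK replicate 1. Summed over all members, the level was 1870.5 ± 232.3 CPM (SD, n = 3) in CD36+ NK and 1822.4 ± 183.1 CPM (SD, n = 3) in CD36- NK, and the groups overlapped. In 6 members (12.8%, against 32.8% of all tested genes) the groups did not overlap, and all 6 were higher in CD36+ NK.

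**Figure D2:**
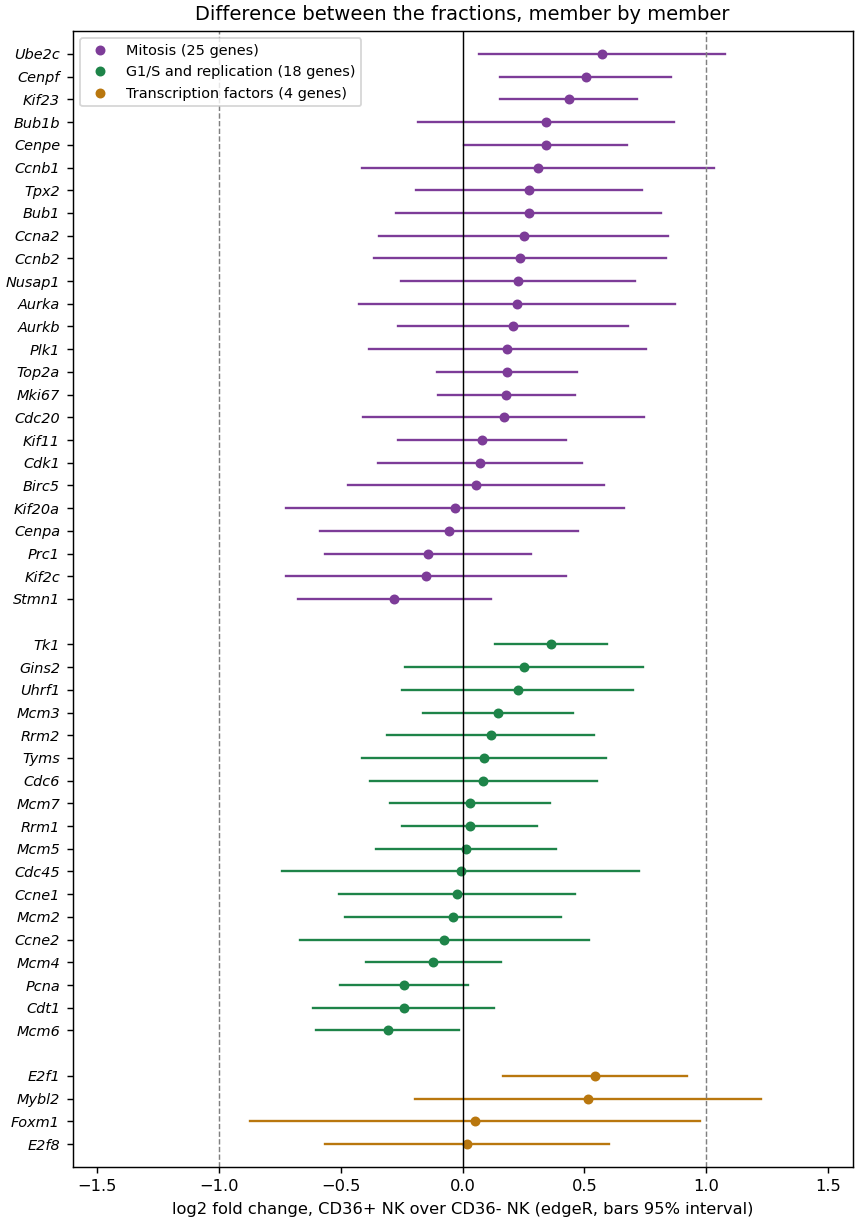
log2 fold change of CD36+ NK over CD36- NK for each member, from edgeR, with bars for the 95% interval, colours for the 3 classes and dashed lines at 2-fold either way. Of the 47 intervals, 44 lie between the dashed lines, and the mitosis genes sit further to the right (median 0.21) than the replication genes (median 0.02), medians that were 0.02 and -0.13 without CD36+ NK replicate 1.

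For the 25 mitosis genes the log2 fold changes had their median at 0.21 and ran from -0.28 to 0.57, and 20 of them were above 0. Their median was 0.02 without CD36+ NK replicate 1, 0.09 without CD36- NK replicate 3 and 0.36 without CD36- NK replicate 1. None passed the adjusted p alone (background 10.5%), and 4 passed the unadjusted one (Cenpe, Cenpf, Kif23 and Ube2c), a share of 16% below the 26.3% of all tested genes. The most abundant in CPM was Mki67 (ENSMUSG00000031004), given by the table at chromosome 7, 135291513 to 135318090. Its level was 156.6, 122.1 and 152.5 CPM in CD36+ NK replicates 1 to 3 and 134.0, 128.2 and 118.3 CPM in CD36- NK replicates 1 to 3. The groups overlapped, since CD36+ NK replicate 2 lay below the first and second CD36- NK libraries, and the log2 fold change of 0.18 (SE 0.119, 95% interval -0.10 to 0.46) had an adjusted p of 0.398 by edgeR. It was 0.10 without CD36+ NK replicate 1 and 0.29 without CD36+ NK replicate 2. Top2a, the topoisomerase that untangles sister chromosomes, was measured at 106.8, 88.2 and 106.7 CPM in CD36+ NK and 93.8, 94.96 and 77.1 CPM in CD36- NK. It overlapped in the same way, with a log2 fold change of 0.18 (SE 0.123, adjusted p = 0.408 by edgeR), or 0.08 without CD36- NK replicate 3.

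Among these 4, Kif23 encodes a motor of the central spindle that is needed for cytokinesis, and its level was 31.8, 29.5 and 36.5 CPM in CD36+ NK and 24.8, 24.6 and 22.9 CPM in CD36- NK. Every CD36+ NK library exceeded every CD36- NK library, and the log2 fold change was 0.44 (SE 0.120, 95% interval 0.15 to 0.72, adjusted p = 0.0629 by edgeR). Cenpf, a large protein of the outer kinetochore, was measured at 12.4, 14.4 and 15.6 CPM in CD36+ NK and 10.2, 10.5 and 9.08 CPM in CD36- NK. These groups did not overlap either, and the log2 fold change was 0.50 (SE 0.150, adjusted p = 0.0763 by edgeR). Cenpe, a kinetochore motor, chosen for display after its values were seen, had levels of 22.8, 20.2 and 24.4 CPM against 18.4, 19.5 and 15.2 CPM. The lowest CD36+ NK library stood just above the highest CD36- NK library, with a log2 fold change of 0.34 (SE 0.142, adjusted p = 0.183 by edgeR).

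Ube2c, the ubiquitin-conjugating enzyme that works with the anaphase-promoting complex, had the largest log2 fold change of the 47 members. Its level was 24.1, 16.7 and 18.6 CPM in CD36+ NK and 15.3, 14.6 and 9.96 CPM in CD36- NK. The groups did not overlap, but the log2 fold change of 0.57 (SE 0.214, 95% interval 0.07 to 1.08) had an adjusted p of 0.141 by edgeR. The mitosis gene with the lowest log2 fold change was Stmn1, whose product destabilizes microtubules, with levels of 39.9, 30.9 and 34.2 CPM in CD36+ NK and 47.5, 46.4 and 33.3 CPM in CD36- NK. The third CD36- NK library fell within the CD36+ NK range, and the log2 fold change was -0.28 (SE 0.168, adjusted p = 0.351 by edgeR), or -0.43 without that library.

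For the master regulators of mitosis the differences were not resolved from 0. Cdk1, the kinase that drives entry into mitosis, had a log2 fold change of 0.07 (95% interval -0.35 to 0.49). Its partner cyclins Ccna2, Ccnb1 and Ccnb2 had log2 fold changes of 0.25, 0.31 and 0.24. The mitotic kinases Plk1, Aurka and Aurkb had log2 fold changes of 0.18, 0.22 and 0.21, and the spindle checkpoint genes Bub1 and Bub1b 0.27 and 0.34. All of these intervals included 0, and the adjusted p-values by edgeR of these 9 genes ran from 0.39 (Bub1b) to 0.848 (Cdk1). The spindle genes Kif11, Tpx2 and Nusap1 had 0.08, 0.27 and 0.23, the anaphase-promoting complex activator Cdc20 0.17 and the chromosomal passenger Birc5 0.05. Below 0 lay Kif2c (-0.15), a microtubule depolymerase, Prc1 (-0.14), a crosslinker of the central spindle, Cenpa (-0.06) and the motor Kif20a (-0.03). These 9 intervals included 0 as well. Cenpa, the centromeric histone, also singled out after its values were seen, scattered from 55.4 to 100.5 CPM in the CD36- NK libraries alone.

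For the 18 genes of G1/S entry and replication the median was 0.02 on the same scale and the range -0.31 to 0.36, and 10 were above 0. This median was -0.13 without CD36+ NK replicate 1 and 0.15 without CD36- NK replicate 1. All 18 intervals lay within 2-fold and 10 of them within 1.5-fold. The 6 genes of the MCM2-7 helicase had log2 fold changes of -0.04 (Mcm2), 0.15 (Mcm3), -0.12 (Mcm4), 0.01 (Mcm5), -0.31 (Mcm6) and 0.03 (Mcm7). Mcm6 (chromosome 1, 128259327 to 128287401 in the table) was measured at 125.3, 96.8 and 104.2 CPM in CD36+ NK and 146.3, 122.6 and 134.8 CPM in CD36- NK. It was the only member lower in CD36+ NK at an unadjusted p below 0.05, the first CD36+ NK library exceeded the second CD36- NK library, and the adjusted p was 0.169 by edgeR. For Mcm5 the levels were 117.6, 86.6 and 94.7 CPM against 116.9, 88.5 and 90.5 CPM, and replicate 1 was the highest library of both groups.

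Pcna, the most abundant member, was measured at 165.6, 169.2 and 180.5 CPM in CD36+ NK and 204.0, 177.5 and 227.9 CPM in CD36- NK. The groups overlapped by a single library on each side, and the log2 fold change of -0.24 (SE 0.112, 95% interval -0.51 to 0.02) had an adjusted p of 0.226 by edgeR. Without CD36- NK replicate 3 it was -0.16. Tk1, which encodes the thymidine kinase of S phase, was the most even member within each group. Its level was 29.8, 29.4 and 29.3 CPM in CD36+ NK and 22.6, 23.6 and 22.7 CPM in CD36- NK. The groups stood apart, with a log2 fold change of 0.36 (SE 0.0976, 95% interval 0.13 to 0.59), and the adjusted p of 0.06 by edgeR was the lowest of all members. The table places Tk1 at chromosome 11, 117706352 to 117716918, where it overlaps genes on the other strand whose own totals exceeded 10% of the Tk1 total. The share of Tk1 counts in the overlap was not measured.

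The remaining S phase genes had differences of either sign. The ribonucleotide reductase subunits Rrm1 and Rrm2, which supply deoxynucleotides, had log2 fold changes of 0.03 and 0.11, and Tyms, thymidylate synthase, 0.09. The origin licensing genes Cdc6 and Cdt1 had log2 fold changes of 0.09 and -0.24, and the helicase activators Cdc45 and Gins2 had -0.01 and 0.25. For the E-type cyclins, which start S phase with CDK2, the values were -0.02 (Ccne1) and -0.07 (Ccne2). Uhrf1, which carries DNA methylation through replication, had 0.23. Each of these intervals included 0.

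The 4 transcription factors had a median of 0.28, which was 0.14 without CD36+ NK replicate 1, 0.14 without CD36- NK replicate 3 and 0.49 without CD36- NK replicate 1. E2f1 had levels of 22.6, 23.0 and 25.9 CPM in CD36+ NK and 18.4, 17.5 and 13.0 CPM in CD36- NK. The groups did not overlap, and the log2 fold change was 0.54 (SE 0.16, 95% interval 0.16 to 0.92, adjusted p = 0.0758 by edgeR). Mybl2, the B-MYB factor of the late cell cycle, was measured at 21.9, 14.1 and 17.96 CPM against 18.3, 8.67 and 10.6 CPM. Its groups overlapped through the high first CD36- NK library, and the log2 fold change of 0.52 had an SE of 0.302 (adjusted p = 0.338 by edgeR). It was 0.89 without that library, 0.34 without CD36+ NK replicate 1 and 0.31 without CD36- NK replicate 2. Foxm1, which acts on mitosis genes in G2, had levels of 19.4, 15.6 and 17.2 CPM against 23.4, 19.9 and 6.93 CPM. The third CD36- NK library stood far below the other 5, and the log2 fold change was 0.05 with an interval of -0.87 to 0.97. The value was -0.32 without that library, -0.05 without CD36+ NK replicate 1 and 0.36 without CD36- NK replicate 1. E2f8, a repressor of E2F targets, had a log2 fold change of 0.02 (95% interval -0.57 to 0.60).

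Several members share their locus with another gene. For 10 of the 47 members (Ccna2, Cdc20, Kif20a, Nusap1, Prc1, Ccne2, Cdc45, Gins2, Mcm7 and Tk1) a gene on the other strand overlapped, and its own total count exceeded 10% of the member's total. The sources used here do not state whether counting used the strand, so these 10 values are uncertain.

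Many members shared the same order of libraries. CD36+ NK replicate 1 was the highest library of its group in 39 of 47 members (83.0%, against 34.3% of all tested genes), and CD36- NK replicate 1 in 37 (78.7%, against 32.3%). CD36+ NK replicate 2 was the lowest of its group in 42 members (89.4%, against 29.2%), and CD36- NK replicate 3 in 35 (74.5%, against 37.4%). The median coefficient of variation over members was 16.8% in CD36+ NK and 17.6% in CD36- NK, against 12.3% and 13.5% over all tested genes. The 47 genes share their libraries, so these counts describe 6 libraries and not independent genes.

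Other marker genes moved with the replicate 1 libraries. All 7 neutrophil markers were highest there in both groups, and their sum was 2469.9, 350.2 and 447.6 CPM in CD36+ NK and 2048.9, 1140.2 and 822.3 CPM in CD36- NK. The plasma cell markers also summed highest there, at 1597.9, 977.2 and 1231.3 CPM in CD36+ NK and 1206.9, 789.8 and 844.9 CPM in CD36- NK. Mpo and Klf1 were singled out after their values were seen. Mpo, a granule enzyme made by myeloid precursors, was listed at 52.1, 5.003 and 3.33 CPM against 16.7, 15.6 and 7.62 CPM. Klf1, a factor of erythroid precursors, was at 17.4, 1.99 and 4.99 CPM against 7.30, 2.56 and 1.66 CPM. CD36+ NK replicate 1 was the highest library of all 6 for both genes, and the erythroid list summed to 846.3, 403.4 and 376.7 CPM in CD36+ NK and 194.9, 148.3 and 84.2 CPM in CD36- NK, so it was higher in replicate 1 and in CD36+ NK as a whole. The part of these cells in the members' levels was not tested. Without both replicate 1 libraries, 0 of 47 members passed the adjusted p, 7 passed the unadjusted one, and the median log2 fold change was 0.09. In that smaller fit 3.61% of all tested genes passed the adjusted p and 24.1% the unadjusted one.

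**Figure D3:**
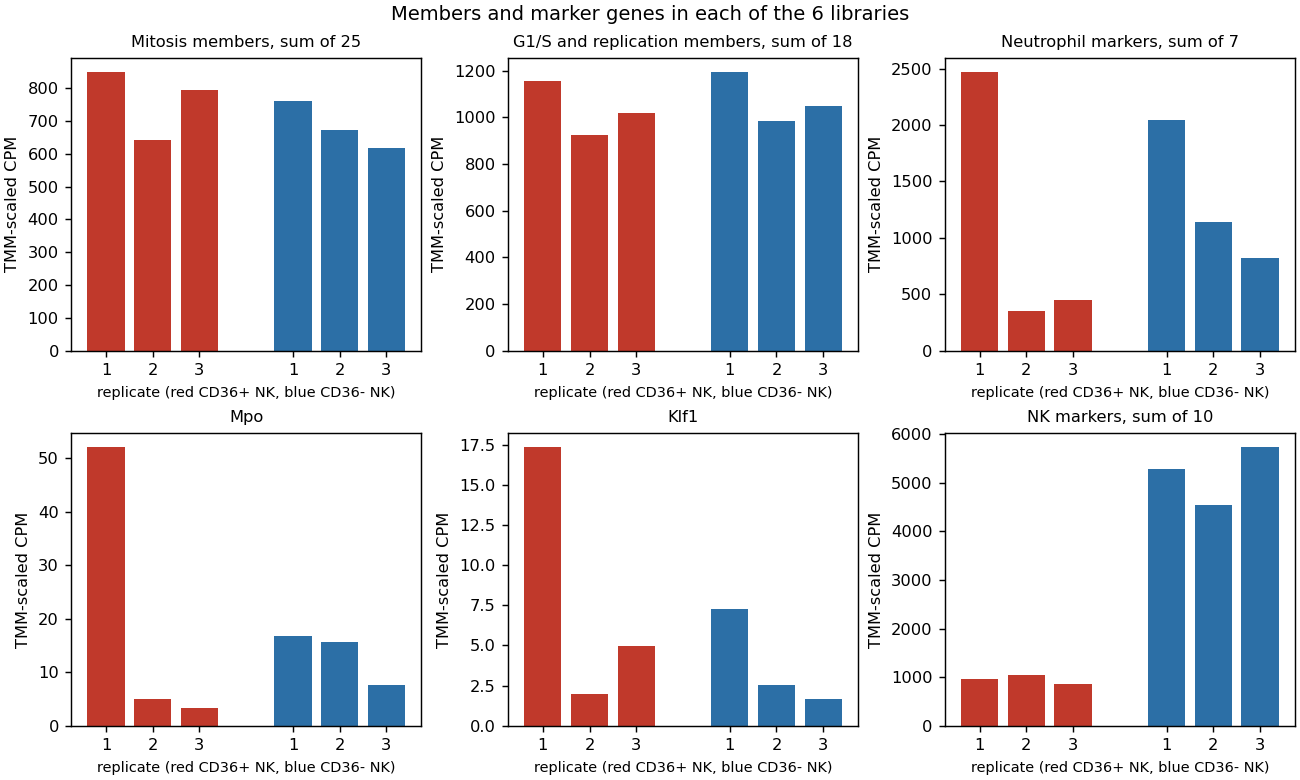
Summed or single gene levels in CPM scaled by TMM factors (bars, 1 per library, axes from 0) for the mitosis members, the replication members, the neutrophil markers, Mpo, Klf1 and the NK markers. The members and the neutrophil markers are highest in replicate 1 of each group, while the NK markers are at most 1040.6 CPM in the CD36+ NK libraries and at least 4543.3 CPM in the CD36- NK libraries.

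A ratio of the classes within a library is free of a shift that both classes share. The summed level of the 25 mitosis genes was 849.5, 640.8 and 793.7 CPM in CD36+ NK and 760.6, 674.0 and 616.9 CPM in CD36- NK. The 18 replication genes summed to 1156.2, 923.7 and 1016.6 CPM against 1193.7, 985.0 and 1047.7 CPM. Both sums overlapped between the groups. The ratio of the mitosis sum to the replication sum was 0.735, 0.694 and 0.781 in CD36+ NK and 0.637, 0.684 and 0.589 in CD36- NK. These ratios did not overlap, with the second CD36- NK library close below the second CD36+ NK library, and no test was made of a score over the members. The ratio was not among the planned comparisons. In the lists of other mitosis and other replication genes, described below, the same ratio overlapped between the groups. There the sums were 1065.8 and 1274.0 CPM in CD36+ NK replicate 2. In CD36- NK replicate 2 they were 1242.8 and 1439.6 CPM, which is the higher ratio.

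Further genes of the same pathway were read from lists that held no member. Of 40 other replication genes, 0 were called with the fold limit (background 5.96%), with a median log2 fold change of -0.04. At the adjusted p alone 3 were lower and 0 higher, against 5.44% lower and 5.07% higher over all tested genes. These 3, named after their values were seen, were Rpa2, a subunit of the protein that coats single-stranded DNA (-0.56, adjusted p = 0.0224 by edgeR), Slbp, which binds histone mRNA (-0.46, 0.0206), and Dnmt1, the maintenance DNA methyltransferase (-0.42, 0.0376). With replicate number as a block in the edgeR fit, their adjusted p-values were 0.0545, 0.0541 and 0.0577, past the threshold of 0.05. The most abundant of the list in CPM were Dnmt1 and Rpa1, the latter with a log2 fold change of -0.38 (adjusted p = 0.0591 by edgeR and 0.0176 by DESeq2). Of 58 other mitosis genes, 0 were called, the median was 0.02, and 1 passed the adjusted p alone. This gene, again named after its values were seen, was Racgap1, the partner of Kif23 in the central spindle, at 54.8, 37.9 and 44.3 CPM in CD36+ NK and 89.4, 81.4 and 90.6 CPM in CD36- NK. Racgap1 fell by 0.93 on the log2 scale (adjusted p = 0.0103 by edgeR), while the value for Kif23 was above 0. The most abundant of these 58 in CPM were Hmgb2, a chromatin protein of dividing cells, with a log2 fold change of -0.33 (adjusted p = 0.117 by edgeR), and the condensin subunit Smc4, with -0.13 (adjusted p = 0.486 by edgeR). Smc4 was at -0.07 without CD36+ NK replicate 3 and -0.20 without CD36- NK replicate 1.

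Genes that gate the entry into the cycle lay upstream of the members. Of 17 G1 cyclins, kinases and E2F genes 16 were tested (Mycn was not), 0 were called and the median was 0.14. The most abundant in CPM were Ccnd2 and E2f2, the latter with a log2 fold change of 0.13 (adjusted p = 0.594 by edgeR). Ccnd2, a D-type cyclin of lymphocytes, passed the adjusted p alone, with levels of 134.0, 123.2 and 120.6 CPM in CD36+ NK and 173.9, 174.4 and 198.6 CPM in CD36- NK (log2 fold change -0.53, adjusted p = 0.0175 by edgeR). Ccnd2 did not pass with replicate number as a block in the edgeR fit (-0.53, adjusted p = 0.0509) or without CD36+ NK replicate 2 (-0.52, 0.0799). Its relative Ccnd1, named after its values were seen, had a log2 fold change of 1.12 (adjusted p = 0.0808 by edgeR), with levels of 29.6, 25.7 and 45.0 CPM against 10.9, 23.3 and 11.8 CPM, and it was called with DESeq2 (1.12, adjusted p = 0.0103). Of 22 cell cycle brakes 20 were tested (Cdkn2a and Cdkn2b were not), 0 were called and the median was -0.11. The most abundant in CPM were Btg1 and Btg2, antiproliferative genes of resting lymphocytes, with log2 fold changes of 0.00 and -0.26. Btg2 was at -0.13 without CD36- NK replicate 1 and -0.45 without CD36- NK replicate 2, where its adjusted p was 0.04 by edgeR. Rbl2, the p130 pocket protein that holds E2F targets silent in resting cells, passed the adjusted p alone, at 114.2, 121.1 and 114.2 CPM in CD36+ NK and 193.4, 209.5 and 236.6 CPM in CD36- NK. It fell by 0.87 on the log2 scale (adjusted p = 0.00423 by edgeR), and its groups were clearly apart. Cdkn1a, the p21 inhibitor, was chosen in the same way as Rbl2, after its values were seen, and had a log2 fold change of 0.80 with an adjusted p of 0.0736 by edgeR.

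**Figure D4:**
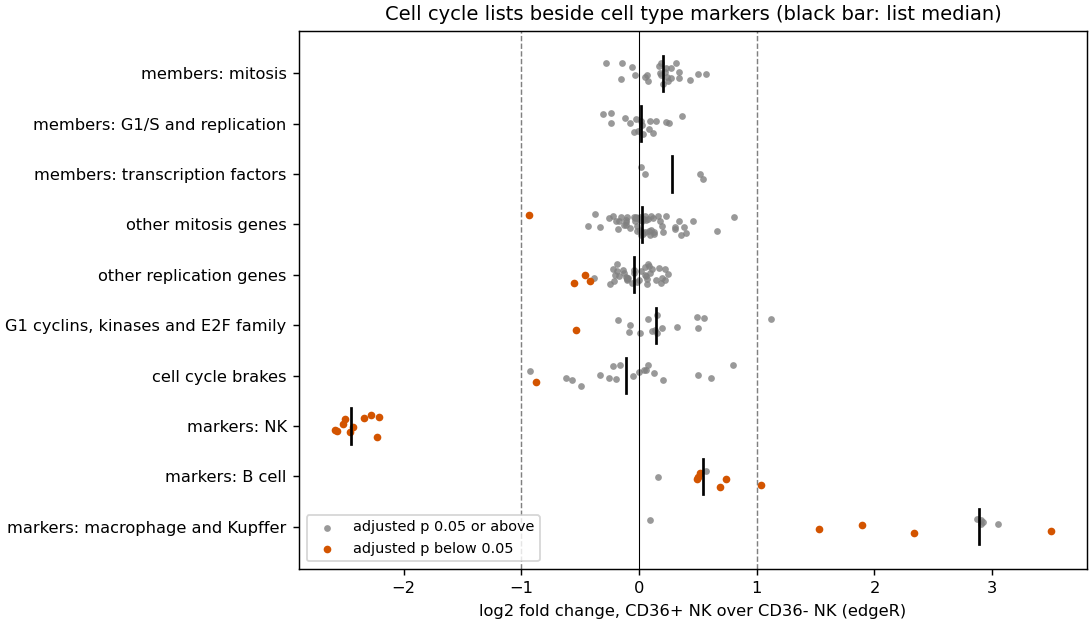
log2 fold change of CD36+ NK over CD36- NK from edgeR for the tested genes of 10 lists, 1 point per gene, with a black bar at each list's median, orange points for an adjusted p below 0.05 and dashed lines at 2-fold. The members and the other cell cycle lists centre between -0.11 and 0.28, beside medians of -2.45 for the NK markers, 0.54 for the B cell markers and 2.89 for the macrophage and Kupffer cell markers.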

How the data were processed

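RNA-seq libraries of CD36+ NK (n = 3) and CD36- NK (n = 3) were analysed from 1 table of 57180 genes. The counts were deposited by the authors as raw reads per gene, beside FPKM that the authors made per gene length and library. The submitters' processing notes name HISAT2 2.0.4 and a rat build, whereas the table holds mouse genes and names no build, so its coordinates are printed as given and promoters carry their own build. The table columns were matched to samples by library name and groups follow the titles.

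Genes were kept by filterByExpr (14761 of 57180) and tested with edgeR 4.0.16 (TMM, quasi-likelihood, all 6 libraries, R 4.3.3), with Benjamini-Hochberg adjustment over all tested genes. A call needed an adjusted p below 0.05 and a fold above 2. limma 3.58.1 (voom) and DESeq2 1.42.0, other filters and scaling, replicate blocks and leaving out each library were alternatives. Members and lists were chosen with earlier results of these data known. Values in every library were given for the 3 of lowest p and the 1 of highest mean FPKM in each class, with Mki67, Pcna and Top2a, and genes of the other lists were those called and the 2 of highest CPM. All other members appear by their log2 fold change within their role. Other genes shown by library are marked as named after their values were seen, and Mcm5 was added for its promoter. FPKM was used for levels between genes only. No 2 libraries of a group were alike within sampling noise (chi-square per degree of freedom 14.8 to 29.2).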

Additional observations from a re-analysis of the deposited data

How the results depend on the processing

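The count of called members was 0 in all 16 fits, and 15 of these had 0 members past the adjusted p alone, the exception being DESeq2 with 2. The replicate numbers were not taken to pair the samples, since the correlations of same-numbered libraries were 0.31, 0.05 and -0.08. Library names number the CD36- NK libraries differently from the titles, and the replicate 1 libraries, the pair at 0.31, share another form of name. The 1 other pair with a shared number in the library names (CD36+ NK replicate 2 and CD36- NK replicate 3) was at 0.12 and the remaining pair at 0.25. Blocks by the form, and by form and number, of these names gave 912 and 1061 calls over all genes and 0 members. With the replicate block 0 members were called, while the count over all genes was 560 in place of 880. Over all genes it was 1552 with no fold limit, 417 to 1160 when each library was left out in turn, and 433 without both replicate 1 libraries, an alternative chosen after seeing the data. Calls in the other lists were 3 replication genes with no fold limit, and 1 mitosis gene (Racgap1) with no limit, with a fold over 1.5 and without both replicate 1 libraries (0 to 1 when each library was left out). In the G1 and E2F list Ccnd1 was the 1 call with DESeq2 and with the replicate block by form and number of library name (0 to 1 when each library was left out), and Ccnd2 the 1 with no limit. Rbl2 was the 1 brake with no limit and with a fold over 1.5. Before the start only, the CHR share was 34.1% for all member windows, against 51.2%, and 47.6% for mitosis windows. Directions turned for values near 0. Foxm1 was -0.05 without CD36+ NK replicate 1 (-0.32 to 0.36 over the libraries left out), Btg1 -0.004 with DESeq2 and -0.03 without CD36+ NK replicate 2 (-0.13 to 0.065), and E2f2 -0.00019 without CD36- NK replicate 3 (highest 0.25). Of 180 values of named members under an alternative, 176 kept their direction and side of the threshold. Slbp, Dnmt1, Rpa2 and Ccnd2 lost the adjusted threshold under several alternatives, while Racgap1 and Rbl2 did not under any. Rpa1 passed it with DESeq2, both blocks by library name and without CD36+ NK replicate 1, and Btg2 without CD36- NK replicate 2. The cause of these changes was not tested.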
